A study of Oryctolagus cuniculus with 6 samples.

Results

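IGF1, HGF, HBEGF, FGF1 and the PDGF receptors were followed in smooth muscle cell preparations of the rabbit basilar artery, with and without a forced rise in flow. Members were taken by name. A probe counted when the array annotation gave the gene's symbol, or when its description gave the full name of the growth factor or receptor itself. Of 6 genes 5 had a probe, among 10030 named genes with one, and together they held 15 of the 43603 probes read: 5 for IGF1, 3 for HGF, 5 for HBEGF, 1 for FGF1 and 1 for PDGFRB. HBEGF and PDGFRB were found by description and the others by symbol. No probe matched PDGFRA, which is not analysed here. IGF1, HGF and HBEGF were higher in ligated than in sham arteries, by 5.15-fold, 3.46-fold and 2.95-fold, and FGF1 was 2.95-fold lower. PDGFRB had the largest mean difference over all arrays, 6.85-fold, but its 3 ligated arrays were spread widely and it did not pass the test. That rank rests on ligated 1, without which the log2 difference was 1.97 for PDGFRB and 2.31 for IGF1.

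All animals were female New Zealand White rabbits, whose age and any pooling the labels do not give. In the ligated group, labelled hemodynamic insult, both common carotid arteries were tied to raise flow, and in the sham control group the same vessels were only exposed. Arteries were collected 5 days later from 3 rabbits per group, and each group has 3 arrays. Cells were loosened from the whole basilar artery by perfusion with elastase and collagenase and released by trituration, with no sorting step in the labels, so other cells of the vessel wall can be in the preparation.

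With 3 arrays a group, the number of arrays limits precision throughout. Slide 1 held every sham array and slide 2 every ligated array, and the 2 factors cannot be told apart. Sham 3 was the only array scanned on scan day 2. Over all tested probes, sham 2 and sham 3 were the closest pair (SD of their difference 0.38 in log2), while sham 1 lay nearer to ligated 1 and ligated 2 (1.05 and 0.92) than to the other sham arrays (1.28 and 1.28). Ligated 3 was about as far from sham 2 (0.96) as from ligated 2 (0.94). Between 58.7% and 63.7% of probes on each array were well above background, and no spot was saturated.

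IGF1 and HGF are secreted growth factors that act through the receptor tyrosine kinases IGF1R and MET. HBEGF is made as a membrane-anchored protein, is cut from the cell surface by metalloproteases and binds EGFR and ERBB4. FGF1 lacks a classical secretion signal and binds FGF receptors together with heparan sulfate. PDGFRB is the receptor tyrosine kinase through which PDGF-B acts on mural cells, and PDGF signalling is known for driving smooth muscle migration and growth in injured arteries. IGF1 is known as a survival and growth signal for vascular smooth muscle.

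The probe sequences show what each value reads and how far the probes of a gene are independent. The 15 probes are 60 bases long and fall on 7 separate stretches of transcript. The 5 IGF1 probes are offset from each other by 1 base and share 56 bases. HGF was read at 3 places, of which the first and the second overlap by 20 bases. HBEGF was read at 2 separate places, the second by 4 probes that share 57 bases. Each sequence below runs 5′ to 3′, is named by its bases in the annotated transcript, and has in capitals the bases that all overlapping probes of that stretch share.
IGF1, bases 344 to 403: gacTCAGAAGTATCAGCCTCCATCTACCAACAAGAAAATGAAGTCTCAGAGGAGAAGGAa
HGF, bases 2008 to 2067: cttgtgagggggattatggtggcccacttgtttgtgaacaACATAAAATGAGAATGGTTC
HGF, bases 2048 to 2107: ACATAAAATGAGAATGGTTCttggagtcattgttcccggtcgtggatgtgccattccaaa
HGF, bases 2129 to 2188: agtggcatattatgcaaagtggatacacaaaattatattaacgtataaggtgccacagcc
HBEGF, bases 327 to 386: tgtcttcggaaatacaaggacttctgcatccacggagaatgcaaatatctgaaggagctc
HBEGF, bases 545 to 604: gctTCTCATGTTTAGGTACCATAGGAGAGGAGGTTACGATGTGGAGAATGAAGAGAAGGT
FGF1, bases 331 to 390: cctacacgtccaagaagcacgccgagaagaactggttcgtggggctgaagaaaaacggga
PDGFRB, bases 2909 to 2968: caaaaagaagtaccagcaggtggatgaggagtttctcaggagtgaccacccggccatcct

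On the rabbit build oryCun2 the file annotation places the IGF1 probe at chr4:81694143-81695727 on the minus strand, and the HGF probes on the plus strand at chr7:34157980-34160497, chr7:34160478-34160537 and chr7:34160559-34160618. The HBEGF probes lie at chr3:22492039-22492098 and chr3:22486212-22487035, the FGF1 probe at chr3:24578963-24579022 and the PDGFRB probe at chr3:31897304-31898090, all on the minus strand. Of the 15 probes 11 span more than 60 genomic bases and so cross a splice junction, and the others lie on 1 uninterrupted stretch. HBEGF, FGF1 and PDGFRB are thus all on chromosome 3.

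Levels are given as log2 of the processed signal relative to the 75th percentile of the same array, so 0 is the level of that percentile, and the difference is always ligated minus sham. Groups were compared with limma over all 27410 probes that at least 3 of the 6 arrays marked well above background, with Benjamini-Hochberg adjustment and a threshold of 0.05. The probe with the highest mean signal stands for a gene. All 15 probes were tested and 14 passed, 13 of them higher and 1 lower in ligated arteries. Of the 15, 1 HGF probe reached the test only through the ligated arrays and so had to differ. Of the 14 well above background on all arrays 13 passed, 12 of them higher. Over all tested probes 8.35% passed, 5.71% higher and 2.65% lower. The groups did not overlap for any of the 15 probes, against 34.7% of all tested probes whose groups did not overlap.

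**Figure D1:**
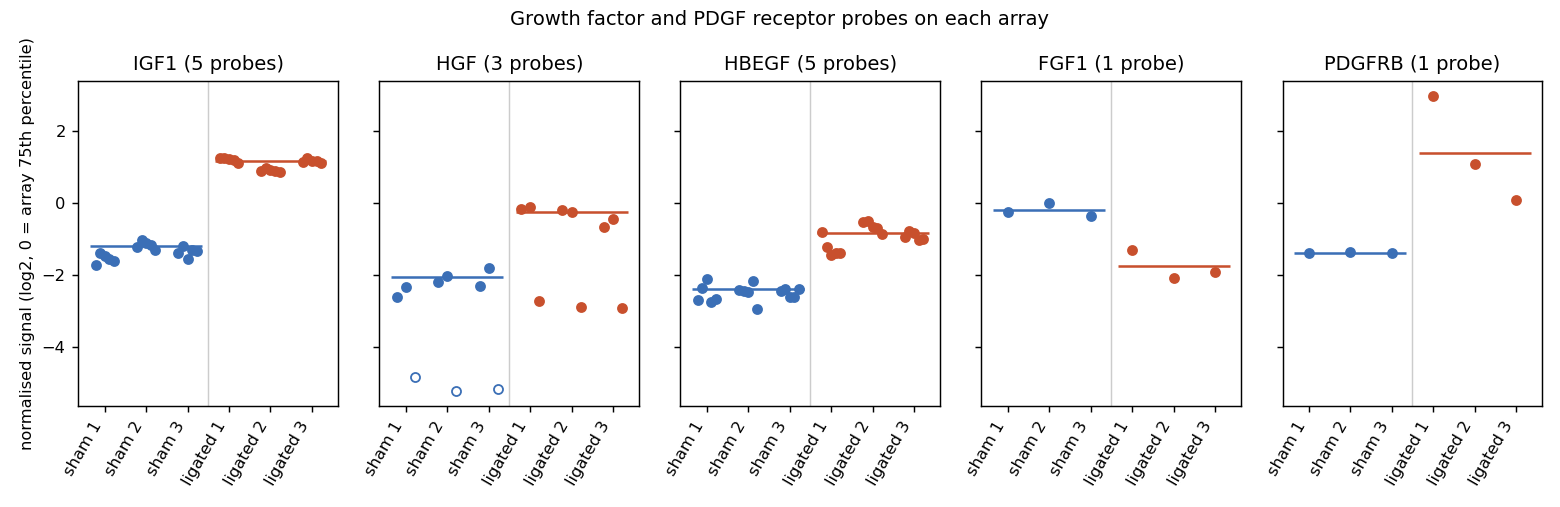
Normalised log2 signal (vertical axis) of each array of the sham and ligated groups, with 1 panel per gene, 1 point per array for every probe of the gene, open points where the probe was not well above background, and a line at the group mean of the representative probe. Every ligated point lies above every sham point of the same probe for IGF1, HGF, HBEGF and PDGFRB, and below for FGF1. The ligated PDGFRB points run from 0.08 to 2.98.

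IGF1, a survival and growth signal for smooth muscle, was higher in ligated arteries on all 5 probes. Its representative probe read -1.38, -1.04 and -1.21 on sham arrays 1 to 3 and 1.26, 0.97 and 1.24 on ligated arrays 1 to 3. The arrays of each group lay close together and the groups were far apart. The difference was 2.37 in log2 (SE 0.19, 95% interval 1.90 to 2.83), or 5.15-fold, with a limma adjusted p of 0.00313. Before scaling, the processed signals were 85.0, 101 and 96.5 in sham and 433, 491 and 371 in ligated arteries. The 5 probes, which read nearly the same bases and are no separate evidence, differed by 2.37 to 2.55 with adjusted p from 0.00278 to 0.00332. The probe ending at base 406 is annotated across 15925 genomic bases and the other 4 across 1585. Leaving out each array in turn gave 2.28 to 2.46, with limma adjusted p no higher than 0.0232. On scan day 1 alone, without sham 3, it was 2.36.

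HGF, a ligand of MET made mainly by mesenchymal cells, was higher on the 2 probes that were well above background on all arrays, which overlap by 20 bases. The representative probe read -2.33, -2.03 and -1.81 in sham and -0.11, -0.24 and -0.44 in ligated arteries. All ligated arrays stood above all sham arrays, with a gap wider than either group. The difference was 1.79 (SE 0.21, 95% interval 1.28 to 2.30), or 3.46-fold, with a limma adjusted p of 0.00721. The overlapping probe read -2.63, -2.19 and -2.32 in sham and -0.18, -0.19 and -0.68 in ligated arteries, a difference of 2.03 with a limma adjusted p of 0.00648.
The probe at bases 2129 to 2188 shares no base with the others. No sham array marked it well above background, and there it read -4.84, -5.25 and -5.18. In ligated arteries it read -2.73, -2.91 and -2.93. Its sham level is therefore only a bound. Ligated HGF was at least 2.62-fold higher on this probe, with measured group means of -5.09 and -2.86. Its limma adjusted p was 0.00349, but it entered the test only through the ligated arrays, so this p adds no support. For this bound each sham array took its lowest signal among probes well above background, or the probe's own signal where that was higher. HGF without each array in turn differed by 1.66 to 1.91, with limma adjusted p no higher than 0.0421. On scan day 1 alone it was 1.91.

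HBEGF, the membrane-anchored ligand of EGFR and ERBB4, was higher in ligated arteries at both places read. The representative probe read -2.36, -2.44 and -2.40 in sham and -1.24, -0.49 and -0.78 in ligated arteries. The sham arrays agree within a narrow range, and ligated 1 was the lowest ligated array. The difference was 1.56 (SE 0.23, 95% interval 1.00 to 2.12), or 2.95-fold, with a limma adjusted p of 0.0143. At bases 327 to 386, a stretch with no base in common, the values were -2.70, -2.42 and -2.45 in sham and -0.82, -0.52 and -0.95 in ligated arteries. This gave a difference of 1.76 with a limma adjusted p of 0.00661, so both stretches passed with differences inside each other's intervals. The other 3 probes differed by 1.42 to 1.58, with adjusted p up to 0.0290. The call of the representative probe was lost without sham 2 (1.54, limma adjusted p 0.0688), on scan day 1 alone without sham 3 (1.56, 0.0702), and with sham 2 and sham 3 averaged into 1 sample (1.55, 0.0674).

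FGF1, the acidic fibroblast growth factor, was the only one of the 5 genes that was lower in ligated arteries. Its single probe read -0.25, 0.01 and -0.38 in sham and -1.30, -2.08 and -1.92 in ligated arteries. Ligated 1 was the ligated array nearest to the sham group, as on the representative probe of HBEGF, and the groups did not overlap. The difference was -1.56 (SE 0.26, 95% interval -2.18 to -0.94), or 2.95-fold lower, with a limma adjusted p of 0.0190. Processed signals were 186, 208 and 173 in sham and 73.4, 59.4 and 41.5 in ligated arteries. The call was lost without sham 2 (-1.45, limma adjusted p 0.0871), without sham 3 and so on scan day 1 alone (-1.65, 0.0720), without ligated 2 (-1.40, 0.0683), and with sham 2 and sham 3 averaged (-1.55, 0.0738). No second FGF1 probe was available to set beside it.

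PDGFRB, the receptor for PDGF-B on mural cells, had the widest spread. Sham arrays 1 to 3 read -1.40, -1.38 and -1.41, whereas ligated arrays 1 to 3 read 2.98, 1.08 and 0.08. The sham arrays were almost equal (SD 0.01), and the ligated arrays covered a range wider than the gap between the groups (SD 1.48). The mean difference was 2.78 (SE 0.68, 95% interval 1.14 to 4.41), or 6.85-fold, and missed the threshold with a limma adjusted p of 0.0572. Processed signals were 84.1, 79.7 and 84.5 in sham and 1433, 532 and 165 in ligated arteries. Without ligated 1 the difference was 1.97 and passed (limma adjusted p 0.0429). It also passed without ligated 3 (3.43, 0.0275), and on scan day 1 alone it did not (2.77, 0.168). Ligated 1 was highest for PDGFRB and lowest on the representative probe of HBEGF. At HBEGF bases 327 to 386 ligated 3 was lowest instead, at -0.95 against -0.82 on ligated 1.

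The summed signal of 5 pericyte marker genes, in multiples of the 75th percentile, followed the same order as PDGFRB among the ligated arrays, with 19.5, 14.5 and 5.31, against 12.3, 14.0 and 13.6 in sham. RGS5, a regulator of G protein signalling in mural cells, read 2.94, 3.29 and 3.29 in sham and 3.71, 2.53 and 1.86 in ligated arteries, with overlapping groups. Of the 5 genes RGS5 had the highest level on ligated 1. CSPG4 followed the order of the sum, at 1.65, 0.90 and -0.48 on ligated arrays 1 to 3. ABCC9 (1.52, 2.67 and -0.56) and KCNJ8 (-1.49, -1.26 and -2.55) were highest on ligated 2 instead. ANPEP, which was not tested, was highest on ligated 3. The order of the sum was thus not shared by the list as a set. None of the 4 tested pericyte genes passed limma's test, and 0 had an unadjusted p under 0.05. The part of pericyte content in the PDGFRB values was not tested.

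Set against all 7579 named genes tested, the 5 genes lie toward the ends of the distribution. The median difference over all genes was 0.01, with the 5th percentile at -0.95 and the 95th at 1.62. A difference at least as high as that of IGF1 was found in 1.95% of genes, of HGF in 4.01%, of HBEGF in 5.41% and of PDGFRB in 1.16%. A difference at least as low as that of FGF1 was found in 1.10%. At the gene level 4 of 5 passed, 3 higher and 1 lower, where 8.91% of all genes passed, 6.23% higher and 2.68% lower. The groups did not overlap for any of the 5, against 35.5% of all genes. The genes were picked with earlier results of these arrays known, so these shares describe their place and are no test of the group.

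**Figure D2:**
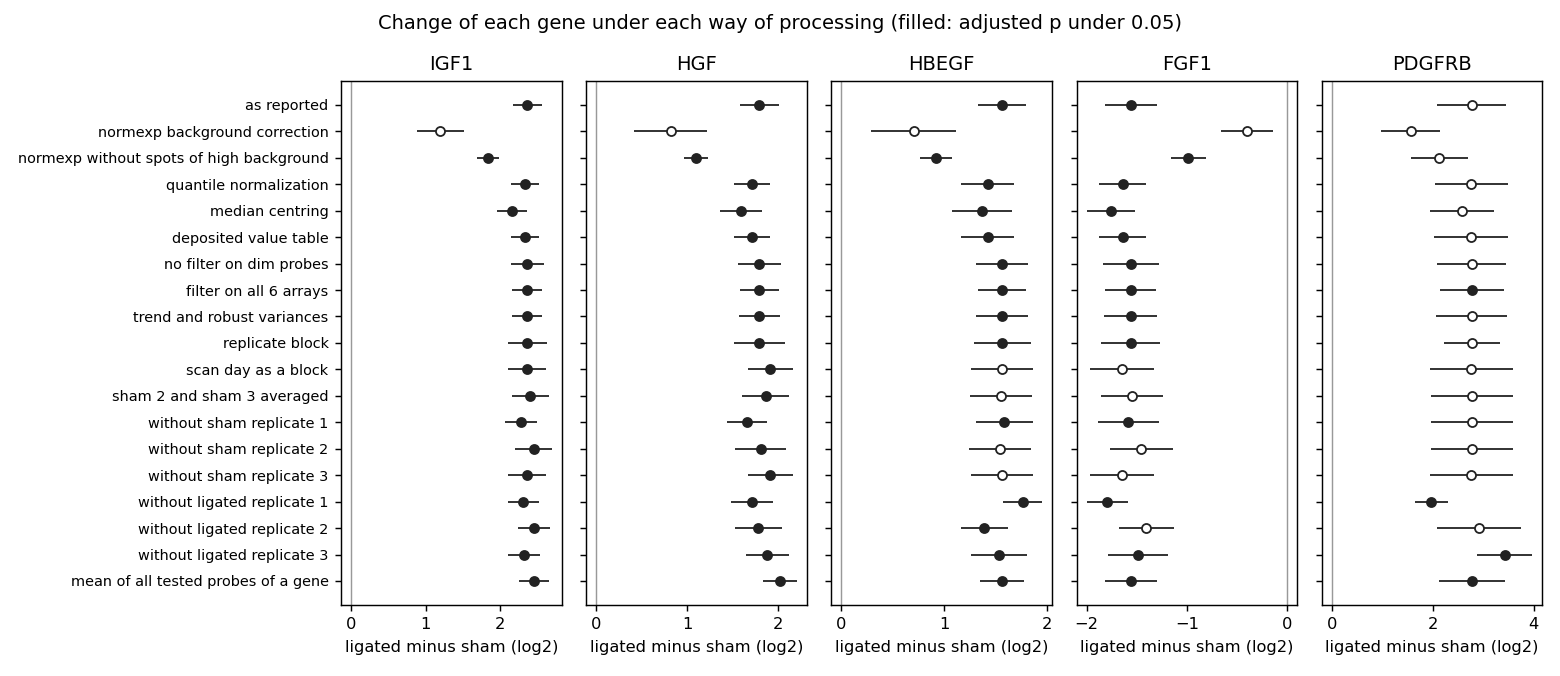
Difference between ligated and sham arteries (log2, horizontal axis) of each gene, with 1 row per way of processing the arrays or per left-out array bars of 1 standard error, and filled points for adjusted p under 0.05. IGF1, HGF, HBEGF and PDGFRB stay above 0 and FGF1 stays below 0 in every row, and no point is filled with the normexp correction.

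A normexp background correction on the raw spot signals ended the calls of IGF1, HGF, HBEGF and FGF1, with differences of 1.20, 0.82, 0.70 and -0.40 and a limma adjusted p of 0.789 for each. That setting called 0 of 27410 probes, with 615 at an unadjusted p under 0.05. The same correction without spots of very high local background called 2242 probes and 13 of the 15 growth factor and receptor probes. IGF1, HGF, HBEGF and FGF1 passed there with smaller differences of 1.84, 1.09, 0.92 and -0.99. With median centring the median of all probes was -0.19, against 0.01 as reported, and the differences of IGF1, HGF, HBEGF and FGF1 were 2.17, 1.59, 1.36 and -1.76, and all 4 passed.

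The receptors and ligands that pair with these genes were looked up by role, after their values could be seen. None of those tested passed. IGF1R, the receptor of IGF1, read -0.41, -0.52 and -0.71 in sham and 0.85, 0.18 and -0.56 in ligated arteries, and ligated 3 lay among the sham arrays. Its difference was 0.70 (95% interval -0.17 to 1.56) with a limma adjusted p of 0.265. MET, the receptor of HGF, was well above background on no sham array and on 1 ligated array and was not tested.
EGFR, which binds HBEGF, differed by -0.12 on its representative probe (95% interval -0.57 to 0.34), and none of its 10 tested probes passed. ERBB4, the other HBEGF receptor, had 1 tested probe of 7, with a difference of -0.59 (95% interval -2.35 to 1.17). FGFR1 and FGFR2, which bind FGF1, differed by 0.51 (95% interval -0.39 to 1.41) and 0.62 (95% interval -0.26 to 1.51). The PDGF-B gene PDGFB differed by 0.74 (95% interval -0.21 to 1.69), PDGFC, which acts mainly through PDGFRA, by -0.58 (-1.45 to 0.29) and PDGFD, a PDGFRB ligand, by 0.51 (-0.41 to 1.43). Each of these intervals holds 0, and they leave room for changes in either direction.

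Other genes of growth factor signalling were counted in 5 lists of 126 genes, of which 89 had a probe and 74 were tested. Of these 8 were higher and 1 lower, or 12.2%, where 8.91% of all genes passed. Their median difference was 0.47, against 0.01 over all genes. FGF18, among the 8, entered the test only through the ligated arrays and so had to differ. The representative probes of EREG, PAPPA and ADAM12 entered in the same way and that of SYT1 only through the sham arrays, and none of these passed. Of the 4 tested EREG probes 3 passed as higher, and of the 3 tested SYT1 probes 1 passed as lower. The other probes of both genes are dimmer on average than the representative. The count, its share and the median include FGF18, EREG, PAPPA, ADAM12 and SYT1, and the same filter held for all genes. The count rested on single arrays: it was 1 without sham 2 and without sham 3, 2 without ligated 2, and 5 without sham 1 or without ligated 1.

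Among 16 tested growth factor ligands 3 were higher and 1 lower. FGF18, a fibroblast growth factor best known from bone and lung, was not well above background in sham (-4.82, -6.34 and -6.05) and read -1.61, -2.07 and -2.45 in ligated arteries. It was at least 4.60-fold higher, with group means of -5.73 and -2.04. Its limma adjusted p was 0.00721, but it entered the test only through the ligated arrays and so had to differ. CTGF, a matricellular protein induced by TGF-beta and by mechanical load, read 1.60, 1.77 and 1.70 in sham and 5.93, 4.78 and 3.38 in ligated arteries, the same order of ligated arrays as for PDGFRB. Its difference was 3.01 (SE 0.60, limma adjusted p 0.0317), and it passed in 1 of the 6 fits that left out an array.
FGF9, a secreted FGF, was higher by 1.16 (SE 0.27, limma adjusted p 0.0483), with 2 of 5 probes passing. FGF13, an intracellular FGF homologue that binds sodium channels, was lower by -1.16 (SE 0.25, limma adjusted p 0.0416), with 1 of 3 probes passing. Neither passed when any 1 array was left out. Of the ligands with a probe, FGF5, FGF7, TGFA, AREG and NRG1 were not well above background on any array.

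Among 14 tested receptors 2 were higher and none lower. IGF2R, which clears IGF2 and carries lysosomal enzymes, rose by 1.14 (SE 0.17, limma adjusted p 0.0151), from -1.43, -1.32 and -1.20 to -0.11, -0.15 and -0.28. PDGFRL, a receptor-like protein without a kinase domain that is no member here, rose by 1.08 (SE 0.23, limma adjusted p 0.0399) on all 5 of its probes. IGF2R lost its call without sham 2, sham 3 or ligated 2 (limma adjusted p up to 0.0817), and PDGFRL without any array but ligated 3 (up to 0.151).

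Among 15 tested binding proteins, activators and sheddases 3 were higher and none lower. IGFBP2, which binds IGF1 and IGF2 outside the cell, read -0.20, 0.56 and 0.43 in sham and 2.12, 3.51 and 2.47 in ligated arteries. Its difference was 2.44 (SE 0.40, limma adjusted p 0.0189), and the call was lost without sham 2 or sham 3. IGFBP4, which also binds IGFs, rose by 1.18 (SE 0.25, limma adjusted p 0.0401). SDC3, a cell surface heparan sulfate proteoglycan, rose by 0.91 (SE 0.18, limma adjusted p 0.0339). IGFBP4 passed in 1 of the 6 fits that left out an array and SDC3 in 0 of them.

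Among 16 intracellular adaptors and effectors and 13 feedback inhibitors limma called 0 on the representative probes, with 3 and 4 at an unadjusted p under 0.05. The medians were 0.04 and 0.64. The smallest p values among the adaptors were those of PIK3R1, a regulatory subunit of PI3-kinase, at 0.56 (limma adjusted p 0.115), and GAB1, a docking protein of receptor tyrosine kinases, at 1.77 (0.146). Among the inhibitors they were those of DUSP6, an ERK phosphatase, at 1.91 (limma adjusted p 0.0550), and DUSP5, another ERK phosphatase, at 1.29 (0.0590). DUSP6 read 0.71, -1.11 and -0.68 in ligated and -2.46, -2.12 and -2.23 in sham arteries, with ligated 1 the highest. Of the 5 DUSP6 probes 1 passed, as higher. The feedback inhibitors called were 3 with the filter on all 6 arrays, 3 with the mean over a gene's probes and 0 with scan day as a block.

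**Figure D3:**
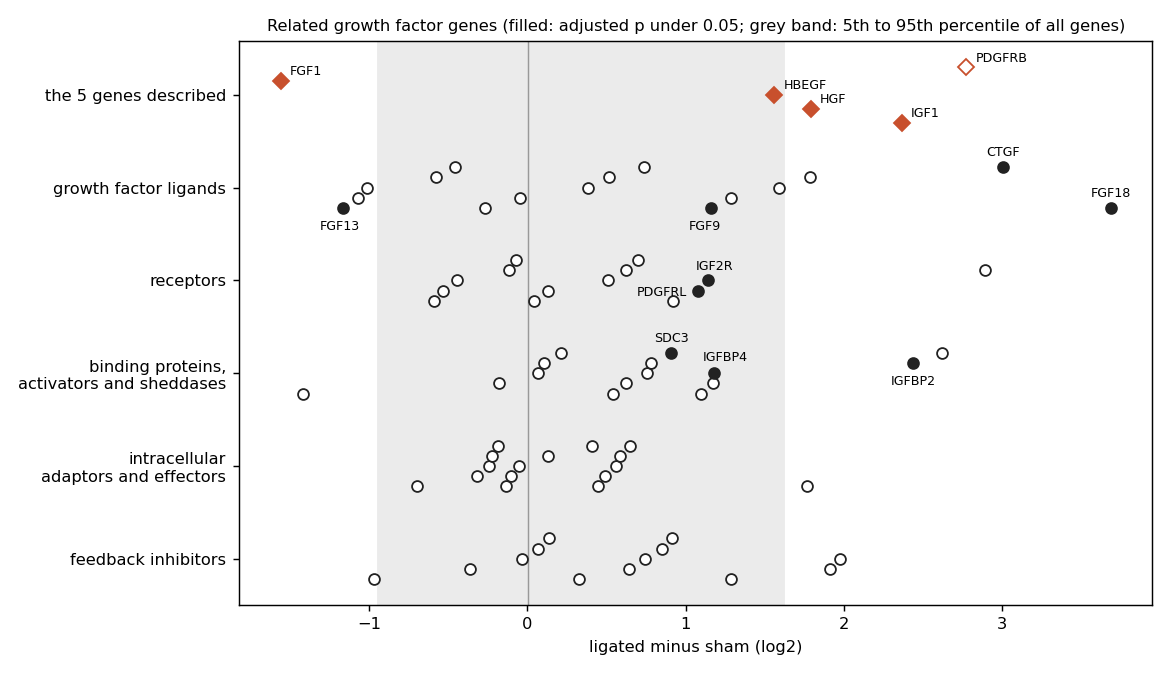
Difference between ligated and sham arteries (log2, horizontal axis) of the 5 genes described and of 74 tested related genes in 5 lists, 1 point per gene, filled where the adjusted p is under 0.05. The grey band runs from -0.95 to 1.62, the 5th to the 95th percentile of all tested genes. CTGF, FGF18 and IGFBP2 are the filled related genes to its right.

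The summed signals of the fibroblast and meningeal list and of the smooth muscle list separated the groups. Of 9 fibroblast and meningeal markers, all tested, 6 passed as higher and none as lower, with a median difference of 1.97, where 8.91% of all genes passed. The 6 fell to 3 without sham 2 and to 2 without sham 3, with medians of 1.87 and 1.82, and was 4 without ligated 1 or ligated 2. Their summed signal ran from 796 to 892 times the 75th percentile in sham and from 1822 to 2025 in ligated arteries. The passing genes were LUM (2.38, limma adjusted p 0.00233), COL1A1 (3.02, 0.00374), COL1A2 (1.74, 0.0102), COL3A1 (1.31, 0.0117), SLC6A13 (2.04, 0.0380) and MFAP5 (3.28, 0.0473), most of which encode extracellular matrix proteins. LUM and COL1A1 passed in all 6 fits that left out an array, and SLC6A13 and MFAP5 in 1. Of the 3 markers that did not pass, PTGDS went the other way, at -0.85 (limma adjusted p 0.250). DCN was at 0.36 (limma adjusted p 0.325) with overlapping groups on its representative probe, while 4 of its 6 probes passed as higher. DPT was at 1.97 (limma adjusted p 0.178). Of 9 smooth muscle markers 2 were lower and none higher, with a median of -1.11. SMTN (-1.77, limma adjusted p 0.00794) and DES (-1.11, 0.0399), both of the contractile cytoskeleton, fell. SMTN passed in all 6 fits that left out an array, whereas DES passed in 1. The smooth muscle sum ran from 1310 to 2139 in sham and from 486 to 1087 in ligated arteries. A change in the number of cells of a type and a change in RNA per cell cannot be told apart in such bulk samples. Which cells made a transcript cannot be told either. The part of this shift in the IGF1, HGF, HBEGF, FGF1 and PDGFRB values was not tested.

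Other markers did not separate the groups by their sums. The sums ran from 51.0 to 103 in sham and 54.7 to 139 in ligated arteries over 5 endothelial markers, and from 9.03 to 19.8 and 8.85 to 33.1 over 7 monocyte and macrophage markers. Over 3 neutrophil markers they ran from 0.939 to 3.67 and 2.30 to 5.94, and over 3 lymphocyte markers from 0.618 to 1.81 and 0.528 to 2.03. Over 4 erythroid markers they ran from 189 to 389 in sham and from 28.5 to 668 in ligated arteries, with ligated 3 the highest. No tested gene of the pericyte, endothelial, monocyte and macrophage, neutrophil, lymphocyte or erythroid lists passed limma's test, and 1 macrophage gene and 1 neutrophil gene had an unadjusted p under 0.05. The defining glial markers AQP4, GFAP and SOX10 were not well above background on any array, and no neuronal marker could be tested.
The macrophage integrin ITGAM was the nearest to passing, at 1.05 (limma adjusted p 0.0546), and MRC1 was at 1.17 (0.193). The other macrophage genes were mixed, with CD68 at 0.88, CSF1R at 0.28, CD14 at 0.01, PTPRC at -0.13 and C1QA at -0.16. The neutrophil genes S100A9 and MPO were at 1.80 (limma adjusted p 0.101) and 0.25 (0.721), and S100A8 went the other way, at -0.60 (0.741). The lymphocyte genes CD3E and MS4A1 were at -0.87 (0.601) and 0.37 (0.701), and the erythroid genes HBB2 and ALAS2 at -1.88 (0.339) and -2.12 (0.343). In the endothelial list ESAM and CLDN5 were at -0.91 (limma adjusted p 0.198) and -0.97 (0.254). The other tested endothelial genes went the other way, PECAM1 at 0.64 (limma adjusted p 0.332) and VWF at 0.42 (0.571). In the pericyte list KCNJ8 was at -0.68 (0.266) and RGS5 at -0.47 (0.533), with ABCC9 at 0.13 and CSPG4 at -0.01.

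**Figure D4:**
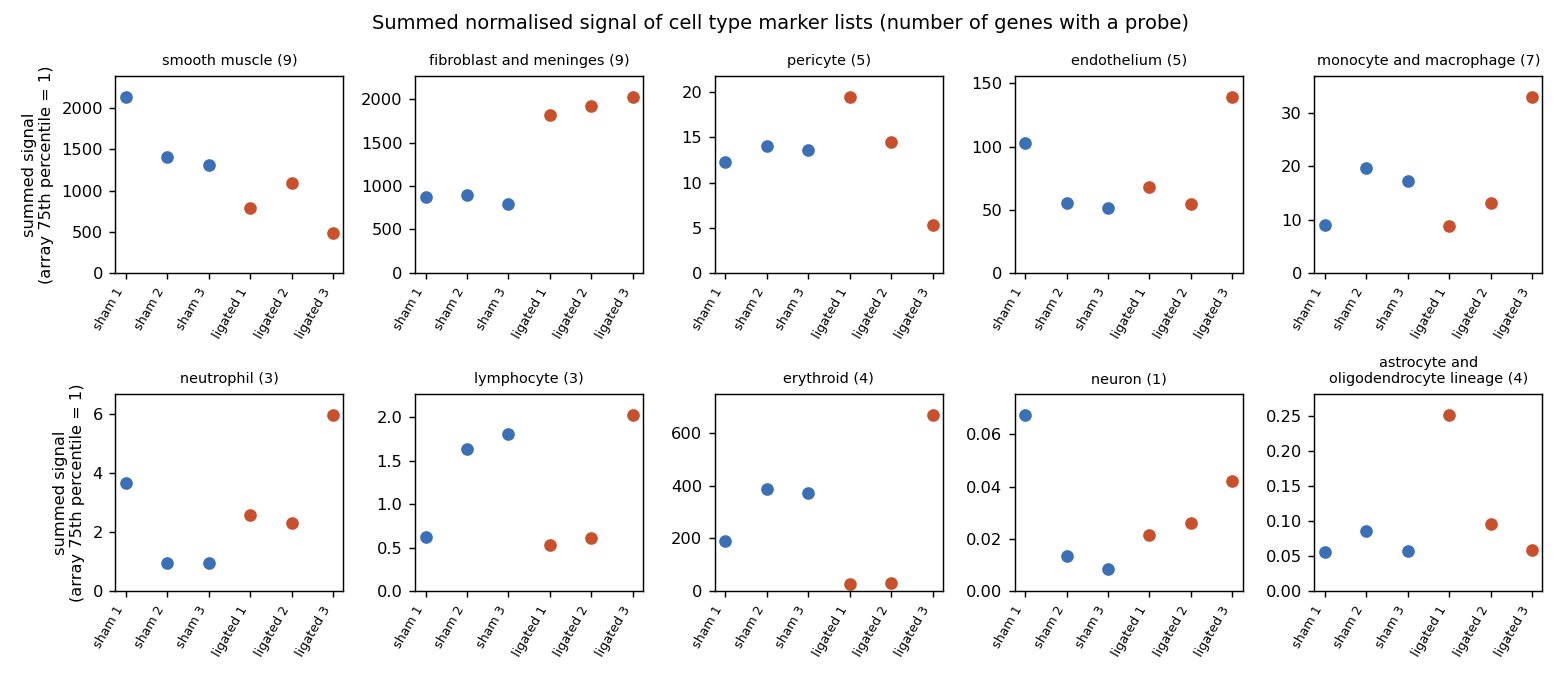
Summed normalised signal (vertical axis, 75th percentile of the array as 1) of each cell type marker list on the 6 arrays, with 1 panel per list, the number of genes with a probe in its title, and 1 point per array. The fibroblast and meninges sums are higher on all 3 ligated arrays and the smooth muscle sums lower, and the pericyte sum falls from 19.5 on ligated 1 to 5.31 on ligated 3.

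The named genes whose levels over the 6 arrays were most like each member were picked by Pearson correlation among 7564 genes, as a description with no test. Since the arrays form 2 groups, a shared group difference makes up much of each correlation. For IGF1 they were RCN1, FAM78B and TDP1 (r from 0.996 to 0.998). For HGF they were IGF2R, TCF19 and ALDH1A2 (0.996 to 0.998). For HBEGF they were OTUB2, FBXL7 and SCGB1D1 (0.994 to 0.997), and for FGF1 KCNA10, DLG3 and MIIP (0.994 to 0.997). For PDGFRB they were ABHD13, GINM1 and ZNF362 (0.998 to 1.000). Between 70 and 220 genes reached an r of 0.95 with a member, so many genes share each pattern.
The neighbours of PDGFRB also had nearly equal sham arrays and ligated arrays in the order 1, 2 and 3. ZNF362 read -0.11, -0.09 and 0.02 in sham and 3.36, 1.69 and 1.10 in ligated arteries, and with a limma adjusted p of 0.0665 it did not pass. TCF19, like HGF, was separated by a wide gap, at -3.09, -2.57 and -2.31 in sham and -0.06, -0.21 and -0.22 in ligated arteries, with a limma adjusted p of 0.00441.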

How the data were processed

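Per the labels' protocols, total RNA was labelled with Cy3 and hybridised to 1-colour Agilent arrays. Agilent Feature Extraction 10.7 read the scans, per the submitters' processing notes. The processed signal is, per the file headers, a spot intensity whose background was subtracted and which was detrended array by array without scaling across arrays. The raw spot signal and local background are, per the file headers, uncorrected intensity values. The deposited marks (well above background, saturated, outlier) are flags of the kind other. The deposited table of values is on a log2 scale with equal array medians (5.05). No source used here states how it was scaled.

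Outlier spots were left out, repeated spots averaged, and the 75th percentile of each array subtracted on the log2 scale. Probes well above background on at least 3 of 6 arrays (27410 of 43603) were tested with limma 3.58.1 in R 4.3.3, two-sided, with no covariate, and adjusted over all of them. The fit was tested on simulated data. Genes were named through the file annotation and a rabbit RefSeq table (assembly mOryCun1.1, names only). A gene's representative probe is its tested probe with the highest mean signal. Named were all members, up to 6 passing genes per list or else 2 as values, and the 3 genes most like each member. There were 5 lists of related genes and 10 of cell type markers. The members and lists were chosen with earlier results of these data known. Alternatives were normexp background correction with and without spots of high background, quantile and median scaling, the deposited value table, other filters on dim probes, another variance model, the mean over a gene's probes, a replicate block, scan day, averaging of sham 2 and sham 3, and leaving out each array. The labels do not say whether an array holds 1 rabbit, so p-values measure the spread between arrays. Same-numbered sham and ligated arrays deviated together by r of 0.43, -0.57 and 0.58, and differently numbered ones by -0.68 to 0.66. With 3 arrays a group these values cannot decide whether the numbers pair the arrays, and no pairing was assumed.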

Additional observations from a re-analysis of the deposited data

How the results depend on the processing

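The differences of IGF1, HGF, HBEGF, FGF1 and PDGFRB kept their direction under all 18 alternatives. Among these, scan day as a block and leaving out sham 3 gave the same values, since sham 3 alone was scanned on day 2. With normexp background correction they were 1.20, 0.82, 0.70, -0.40 and 1.57, 0 probes and 0 related genes passed, and the cause was not tested. The probes called fell from 2290 to 1524 with no filter on dim probes, 552 with scan day as a block and 595 with sham 2 and sham 3 averaged, and ran from 552 to 2269 over the fits that left out 1 array. The share of calls that were higher was 68.3% as reported, 52.2% with median centring, 57.3% with normexp without spots of high background, 78.6% with no filter, 81.8% with the replicate block, 86.6% with sham 2 and sham 3 averaged and 87.3% with scan day as a block. The median of all probes was 0.01 as reported, 0.21 with normexp, 0.17 with no filter and -0.19 with median centring. HBEGF and FGF1 lost their calls with scan day as a block (1.56 and -1.65) and with the 2 sham arrays averaged (1.55 and -1.55), and ran from 1.39 to 1.76 and from -1.79 to -1.40 without 1 array. PDGFRB passed with a filter on all 6 arrays and with the mean over a gene's probes, adjusted over genes instead of probes (both 2.78, with fewer rows tested), and ran from 1.97 to 3.43 without 1 array. Related genes called, 9 as reported, numbered 4 with no filter, 15 with the filter on all 6 arrays, 15 with trend and robust variances, 15 with the mean over probes, 1 with scan day as a block, 1 with the averaged sham arrays, and 1 to 11 without 1 array. The replicate block, whose shared numbers are not known to pair the arrays, gave 1295 probes and 4 related genes and changed no call of the 5 genes.

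Over 55 other named genes, 762 of 982 alternative values kept direction and call, 189 lost and 20 gained the call, and 11 changed sign, none in a gene called there. With normexp these were KCNJ8 0.0104, CD3E 0.63, ALAS2 0.36, MIIP 0.40, EGFR 0.50 and ERBB4 0.58. MS4A1 was -0.27 with scan day as a block and ran from -0.27 to 0.91 without 1 array. EGFR was 0.0710 with normexp without spots of high background and 0.0522 with the mean over its probes, and ERBB4 ran from -1.20 to 0.11 without 1 array. A slide block could not be fitted because each slide holds 1 group, and looking for members by accession or gene number added 0 probes. Dim probes limit what can be said of MET, of FGF18 in sham, and of the HGF probe at bases 2129 to 2188 in sham.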
